A study of Homo sapiens with 2 samples.

Results

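The inducible heat shock genes followed here are HSPA1A, HSPA1B, HSPA6, BAG3 and HSPD1, found by name among the array's gene symbols. No threshold on their values was used, but the names were chosen with earlier results of these data known. They are 5 of the 14884 genes with a named probe set, and 13 of the 16098 named probe sets carry their names. They were measured in AsPC-1, an established line of human pancreatic adenocarcinoma cells, grown in a collagen gel overlay as a 3-dimensional culture. One culture was left uncompressed for 24 h. The other was held under a compressive stress of 2.9 mmHg for the same 24 h, and the total RNA of each went onto 1 GeneChip Human Gene 2.0 ST array. Line, overlay, medium with serum and duration were common to both groups, and neither the gel nor the load was varied further.

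Heat shock proteins are molecular chaperones, which hold unfolded proteins and help them fold, move or be degraded. When unfolded proteins accumulate in the cytosol, the transcription factor HSF1 forms trimers, binds heat shock elements (repeated GAA units in alternating orientation) in front of its target genes and raises their transcription. HSPA1A and HSPA1B encode nearly identical forms of the inducible cytosolic chaperone HSP70. HSPA6 encodes HSP70B', a related HSP70 that many cells make in quantity only under proteotoxic stress. BAG3 encodes a co-chaperone that releases nucleotide from HSP70, links it to small heat shock proteins and directs damaged proteins to autophagy, a route known from cells under mechanical load. HSPD1 encodes HSP60, the chaperonin of the mitochondrial matrix, and shares a divergent promoter with its partner gene HSPE1.

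The sequence in front of each start site is shown because these 5 genes are grouped by their regulation through heat shock elements. RefSeq (GRCh38.p14) gave a start site for 5 of 5 members, with 1 more for HSPD1, and the 250 bases before each of these 6 start sites were searched. The motifs were the 2-unit elements GAANNTTC (head to head) and TTCNNGAA (tail to tail) and the 3-unit elements GAANNTTCNNGAA and TTCNNGAANNTTC, where N is any base. Each 2-unit motif is its own reverse complement and the 3-unit motifs are each other's, so both strands were covered, and every 3-unit match also contains matches to both 2-unit motifs. Of the 35116 windows of this length in the table, 11.6% held a 2-unit motif and 0.441% held a 3-unit motif. In the sequences below, capitals mark the bases covered by a 2-unit motif.
HSPA1A, chr6:31815293-31815542, plus strand: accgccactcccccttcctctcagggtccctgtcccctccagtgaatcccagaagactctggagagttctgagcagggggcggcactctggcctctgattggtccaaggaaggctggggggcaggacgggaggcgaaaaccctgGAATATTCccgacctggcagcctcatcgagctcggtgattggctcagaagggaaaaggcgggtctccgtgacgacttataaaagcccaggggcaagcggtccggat
HSPA1B, chr6:31827488-31827737, plus strand: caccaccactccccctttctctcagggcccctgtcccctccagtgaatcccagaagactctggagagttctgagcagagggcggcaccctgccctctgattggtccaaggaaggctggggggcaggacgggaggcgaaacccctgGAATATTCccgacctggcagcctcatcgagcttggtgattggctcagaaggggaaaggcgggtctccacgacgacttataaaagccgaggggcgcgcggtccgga
HSPA6, chr1:161524290-161524539, plus strand: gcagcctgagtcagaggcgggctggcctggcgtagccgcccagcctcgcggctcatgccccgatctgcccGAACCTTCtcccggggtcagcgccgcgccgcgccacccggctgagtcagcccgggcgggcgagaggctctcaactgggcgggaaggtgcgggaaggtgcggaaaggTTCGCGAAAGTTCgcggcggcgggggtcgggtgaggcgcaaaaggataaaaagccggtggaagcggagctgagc
BAG3, chr10:119651130-119651379, plus strand: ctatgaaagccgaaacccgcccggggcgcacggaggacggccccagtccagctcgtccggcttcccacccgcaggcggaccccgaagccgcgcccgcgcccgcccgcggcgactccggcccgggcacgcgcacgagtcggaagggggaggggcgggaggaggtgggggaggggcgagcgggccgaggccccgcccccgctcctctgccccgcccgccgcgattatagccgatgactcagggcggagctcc
HSPD1 site, chr2:197500064-197500089, minus strand: cattTTCTGGAAAGTTCTGGAAccga

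The HSPA1A window held 1 head-to-head match, GAATATTC, from base -106 to -99 counted from the start site, and HSPA1B held the same 8 bases from -105 to -98. Aligned to each other, the windows of these gene copies were identical in 235 of 251 columns (93.6%). HSPA6 held 3 matches, and those at -74 and -69 overlap to form a 3-unit element. HSPD1 held 3 overlapping matches, a 3-unit element included, between -245 and -228 of its downstream start site, of which only the 26-base site is shown. The window of its upstream start site held no match. The BAG3 window held no match either, which says only that these letters are not in these 250 bases. A match describes the letters and is not evidence that a factor was bound in these cultures.

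**Figure D1:**
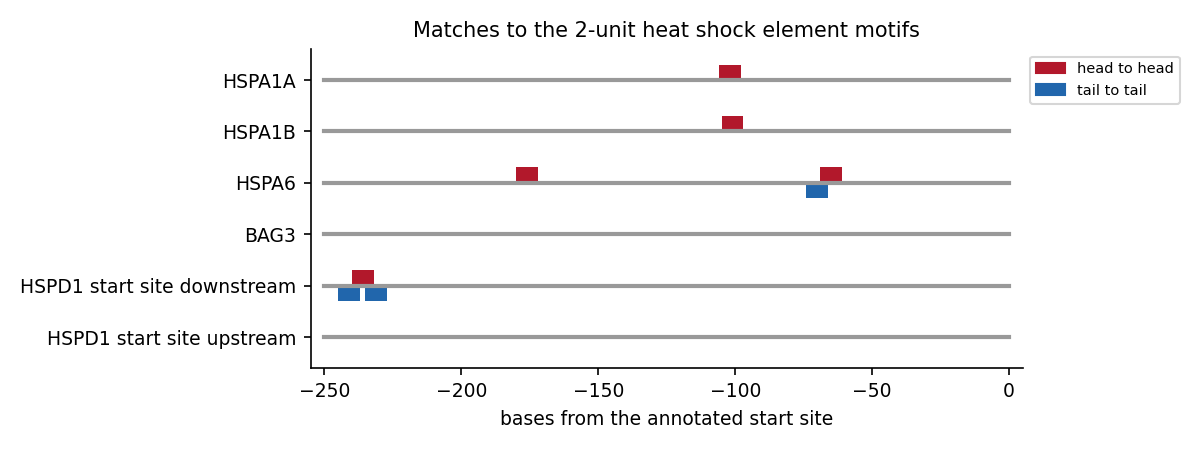
Positions of the 2-unit heat shock element motifs in the 250 bases before each annotated start site of the 5 genes. Each grey line is a window, red bars are head-to-head and blue bars tail-to-tail matches. HSPA1A and HSPA1B have 1 match each at nearly the same distance, HSPA6 and the downstream start site of HSPD1 have 3 each, and the other windows have 0.

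Levels are the authors' RMA signals on a log2 scale, on which 1 unit is a doubling. They ran from 0.162 to 13.3 over 53617 probe sets, and the arrays had medians of 3.75 and 3.72. Where a gene had several probe sets, the one brightest on average gave its level. A gene was kept if its level averaged over both arrays reached 4.79, the median of all genes. This left 7442 kept genes. Each condition is 1 array, so no difference has a replicate check, no test was possible, and precision is limited by there being 2 arrays in all. "Higher" and "lower" compare these 2 arrays, and a gene is counted where the compressed level minus the uncompressed level is at least 0.58, which is 1.5-fold. Of the kept genes, 3.95% were higher and 1.12% were lower by that rule. The array reports RNA of whole cultures, so a change in the make-up of the culture and a change of RNA per cell cannot be told apart.

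The label of the cells was set against marker genes. Of 16 markers of pancreatic cancer epithelium, 13 were named and 9 kept, with a median level of 8.31 without and 8.35 with compression. KRT18, KRT19, EPCAM and CEACAM6 were between 10.4 and 11.7 on both arrays, while KRT7, S100P, AGR2 and CLDN4 lay below the floor. The 4 named endothelial markers lay below the floor. Of 4 named fibroblast markers, LUM (9.75 and 9.39) and THY1 were kept, and of 4 named leukocyte markers, LYZ and CD68. CD68, a lysosomal glycoprotein gene, read 8.45 and 9.26, a difference of 0.81, and TSPAN8, an epithelial tetraspanin gene, 8.31 and 7.52, a difference of -0.79. The part of either in the heat shock differences was not tested.

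All 5 heat shock genes passed the level filter. The 4 genes of the cytosolic HSP70 system (HSPA1A, HSPA1B, HSPA6 and BAG3) were higher in the compressed culture, whereas the mitochondrial chaperonin gene HSPD1 was slightly lower and did not pass 1.5-fold. HSPA1A and HSPA1B were about as much higher as each other, by 1.98-fold. HSPA6 had the largest difference of the 5, from a dim uncompressed level, and BAG3 was just past the size rule at 1.51-fold. The count of 4 of 5 stands beside 3.95% of kept genes, and since the genes were chosen with earlier results known, nothing is read from that contrast. By the brightest probe set, HSPA6 was the 1 member with a difference above 1 on the log2 scale, beside 0.954% of kept genes, but 1 of 5 HSPA1A and 4 of 5 HSPA1B probe sets were also above 1. The 4 genes are not 4 separate observations, because HSPA1A and HSPA1B may share probes and HSPA6 passed the filter through its compressed level.

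**Figure D2:**
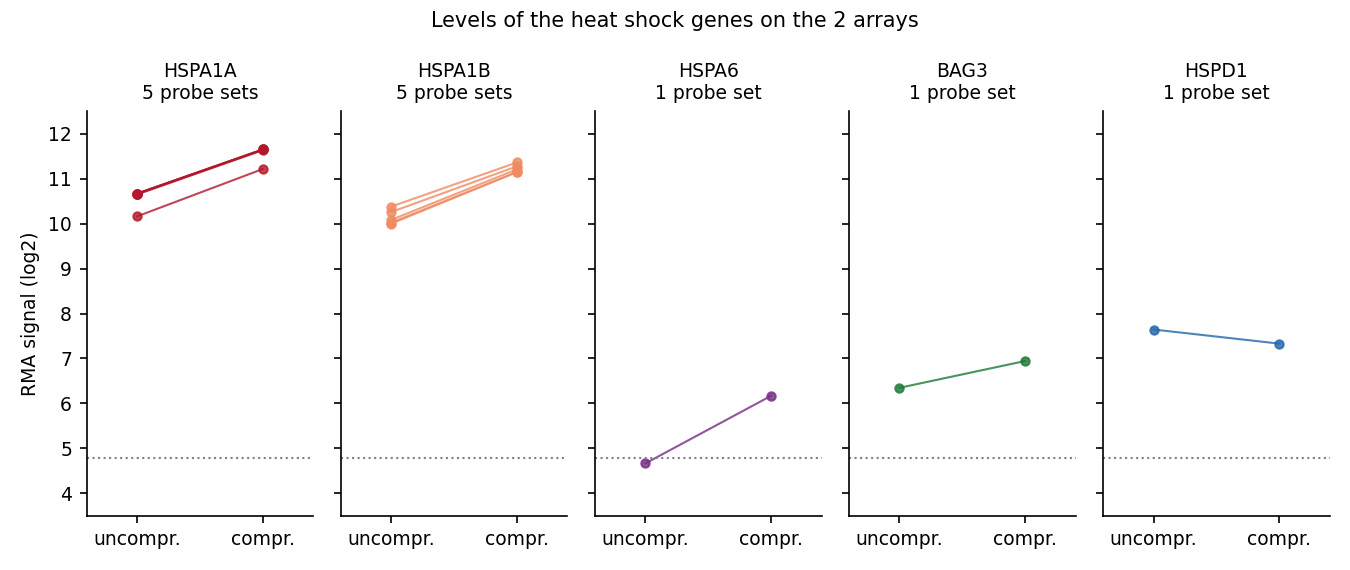
Level of every probe set of the 5 genes (log2 RMA signal) on the uncompressed and the compressed array, each line joining the values of 1 probe set, with the level floor of 4.79 dotted. The 10 probe sets of HSPA1A and HSPA1B, and those of HSPA6 and BAG3, run upwards, that of HSPD1 runs downwards, and HSPA6 starts just under the floor.

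HSPA1A read 10.67 without and 11.65 with compression, and HSPA1B read 10.38 and 11.37. The difference was 0.98 for each (1.98-fold), just short of a doubling. Each gene has 5 probe sets, and the compressed value exceeded the uncompressed value in 10 of 10. Over the probe sets of HSPA1A the difference ran from 0.98 to 1.06, with a mean of 1.00, and over those of HSPA1B from 0.98 to 1.15, with a mean of 1.08. The brightest probe set, which stands for the gene, had the smallest difference of the 5 for each gene.

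These probe sets are not independent measurements. Of the HSPA1A probe sets, 3 carried exactly the same pair of values, which left 3 distinct pairs among 5. The brightest HSPA1B probe set had other levels than these 3 but the same difference within 0.0001. The HSPA1B probe sets had 5 distinct pairs of values. The spread over the 10, from 1.98-fold to 2.22-fold, is a spread between probe sets on the same arrays and says nothing of the spread between cultures. How the signal divides between the gene copies is uncertain.

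The differences of HSPA1A and HSPA1B were also set beside those of genes of like level. Among the 31 other kept genes within 0.5 log2 units of the mean level of HSPA1A, 0 had a larger difference and 1 was at least 1.5-fold higher (3.23%), which was HSPA1B itself. Around HSPA1B, 3 of 44 other genes had a larger difference and 4, HSPA1A among them, were at least 1.5-fold higher (9.09%). Over all kept genes, 77 had a larger difference than this pair.

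HSPA6 read 4.66 without and 6.17 with compression on its 1 probe set, a difference of 1.51 on the log2 scale. The uncompressed level lay below the floor of 4.79, and whether it was above background is unknown, so no fold and no rank among the kept genes is given. Of the 2585 other kept genes within 0.5 log2 units of its mean level, 116 (4.49%) were at least 1.5-fold higher. HSPA7, a transcribed pseudogene next to HSPA6 that is closely similar to it, read 4.40 and 3.79, below the floor on both arrays, with a difference of -0.61. HSPA6 and HSPA7 thus had differences of opposite sign, but sequences this similar can share probes, and the division of signal between them is uncertain.

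BAG3 read 6.35 without and 6.94 with compression on its 1 probe set, a difference of 0.60 (1.51-fold). It was the smallest of the 4 positive differences. Over all kept genes, 278 had a larger difference, and of the 1940 other kept genes within 0.5 log2 units of its mean level 78 (4.02%) were at least 1.5-fold higher. The call sits on the edge of the rule: the difference was 0.57 after a loess correction against level and 0.53 after repeated quantile normalization, both under 0.58.

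HSPD1 read 7.65 without and 7.33 with compression on its 1 probe set. The difference of -0.31 is a level 1.24-fold lower and stayed within the size rule. Over all kept genes, 649 had a more negative difference, and around its mean level 104 of 1307 did. HSPD1 was thus the 1 member with a negative difference, and its RNA was not among the genes counted as lower.

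**Figure D3:**
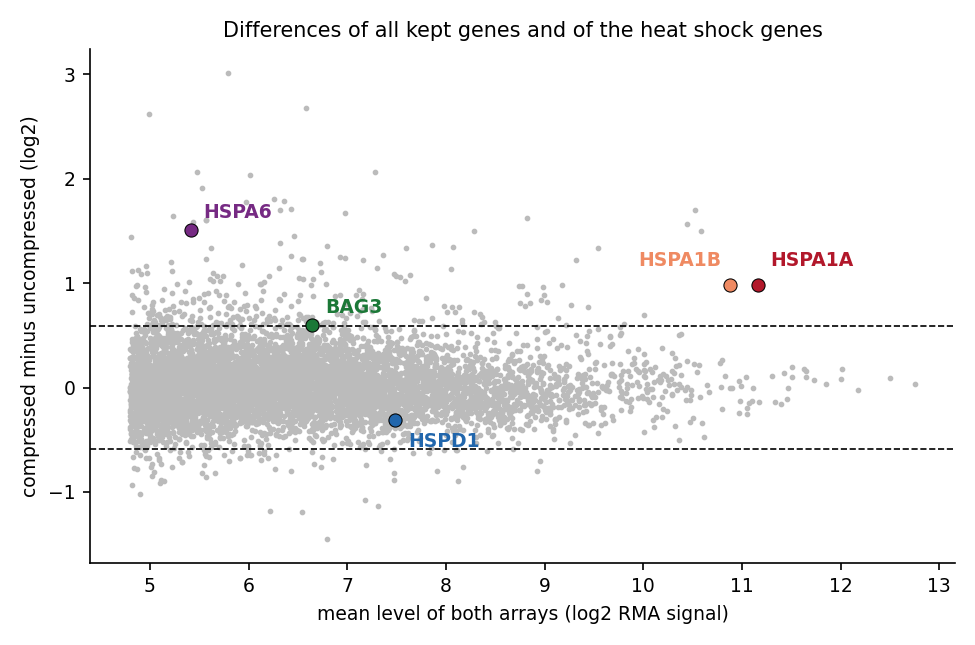
Compressed minus uncompressed level (log2) of the 7442 kept genes, in grey, against the mean level of both arrays, with the 5 heat shock genes in colour and dashed lines at 1.5-fold. HSPA1A and HSPA1B stand at 0.98 among the brighter genes, HSPA6 at 1.51 among dim genes, BAG3 on the upper dashed line and HSPD1 at -0.31 inside the lines.

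Apart from the inducible members, no kept HSP70 gene was higher by the size rule. In the HSP70 and HSP110 family 13 of 16 genes were named and 12 kept. Of the 12, 3 were higher (HSPA1A, HSPA1B and HSPA6) and 1 lower, beside 3.95% and 1.12% of all kept genes. The median difference of the 12 was 0.015, beside 0.0070 over all kept genes, and that of the 9 without the 3 inducible members was -0.14. HSPA1L, a relative of HSPA1A expressed chiefly in testis that lies beside it in divergent orientation, had 5 probe sets with differences between 0.15 and 0.25. HSPH1, the HSP110 nucleotide exchange factor of HSP70, read 9.78 and 10.02, a difference of 0.24, and HSPA4, another HSP110, differed by 0.0035, just below 0 after repeated quantile normalization. HSPA9, the HSP70 of the mitochondrial matrix, read 11.41 and 11.26, a difference of -0.14.

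Several other genes of the family had negative differences. HSPA12A, a distant HSP70 relative, read 6.25 and 5.58, a difference of -0.67 (1.59-fold lower). Its second probe set, whose mean lay below the floor, differed by -0.23, and the mean of both, -0.45, did not pass the size rule. HSPA2, a testis-enriched HSP70, read 6.39 and 5.84, a difference of -0.55. At 1.5-fold it passed only after repeated quantile normalization (-0.61). HSPA4L and HSPA14, an HSP110 and a ribosome-associated HSP70, differed by -0.39 and -0.38.

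Among the BAG genes, BAG3 had the 1 positive difference. BAG proteins share a domain that binds the ATPase part of HSP70, and of 6 BAG genes 5 were named and kept. BAG1, BAG2, BAG4 and BAG5 had differences between -0.14 and -0.05, and BAG3 was the 1 gene past 1.5-fold. Over all kept genes 3.95% were higher and 1.12% lower by that rule. Of 16 genes listed as partners of BAG3 in chaperoning, autophagy and mechanical signalling, 8 were named and 6 kept, and the differences of 6 were positive, beside 50.8% of all kept genes, with a median of 0.23 that includes HSPA1A and HSPA1B. The count was not stable, since YAP1 was at -0.06 with the mean over its probe sets and HSPB1 at 0 after repeated quantile normalization. SQSTM1, the autophagy receptor p62, read 7.49 and 7.74, a difference of 0.26. WWTR1 and YAP1, the transcriptional co-activators of the Hippo pathway, differed by 0.21 and 0.13. HSPB1, the small heat shock protein HSP27, read 11.36 and 11.50, a difference of 0.14, and HSPB8, the small heat shock protein that binds BAG3, lay below the floor on both arrays (2.57 and 2.27).

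The regulators and the wider set of HSF1-induced genes showed few differences past the rule. HSF1 itself read 7.14 without and 7.24 with compression, a difference of 0.11, and HSBP1, a small protein that binds HSF1 trimers, differed by 0.03. HSF4 and HSF2BP differed by -0.26 and -0.31. Of 35 genes listed as induced through HSF1 in cultured human cells, 17 were named and 16 kept, with a median of 0.10. Of the 16, 5 were higher and 0 lower, beside 3.95% and 1.12% of all kept genes. Without the 5 heat shock members the list kept 11 genes, 1 of them higher and 0 lower, and its median was 0.05. The gene past the rule was IER5, an immediate-early gene whose product is known to promote HSF1 activity, which read 5.61 and 6.34, a difference of 0.73 (1.66-fold). STIP1, the adaptor between HSP70 and HSP90, differed by -0.12, and UBB, a polyubiquitin gene, by 0.06.

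CHORDC1, an HSP90 co-chaperone gene of the same list picked out with its values in view, read 4.13 and 4.90. Its mean was below the floor, so it is in no count and no fold is given. The difference on the log2 scale was 0.77, and its RefSeq window held 6 matches to the 2-unit motifs and a 3-unit element.

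The kept co-chaperones and the kept chaperones of other compartments stayed mostly within the rule. So did most kept genes, of which 3.95% were higher and 1.12% lower, so nothing is read from the counts of 0 below. Of 8 kept co-chaperones of HSP70 and HSP90, 0 passed in either direction, with a median of -0.10. CDC37, which guides client kinases to HSP90, and its relative CDC37L1 differed by 0.27 and 0.41, and PTGES3, the HSP90 co-chaperone p23, by 0.11. PPID and FKBP5, immunophilins that bind HSP90, differed by -0.26 and -0.23, and NUDC by -0.13. Of the J-domain proteins, which deliver clients to HSP70 and start its ATPase cycle, 0 of 17 listed in classes A and B were named. In class C, 3 of 32 were named and kept, SEC63 (0.14), GAK (0.0013) and HSCB (-0.11), which do not stand for the family. GAK was below 0 after loess correction and after repeated quantile normalization. Among 12 kept mitochondrial chaperones and proteases, HSPD1 included, 0 passed in either direction and the median was -0.06. TRAP1, the mitochondrial HSP90, read 10.61 and 10.11, a difference of -0.50, while HTRA2, a protease of the intermembrane space, differed by 0.41, PITRM1, a matrix peptidase, by 0.29 and SPG7, a subunit of an inner-membrane protease, by 0.19. HSPD1, HSPA9 and TRAP1, the HSP60, HSP70 and HSP90 of mitochondria, each had a negative difference, none past 1.5-fold. Over the 12 kept mitochondrial genes 5 differences were positive and 7 negative, beside 50.8% positive over all kept genes, so no pattern is read from them.

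In the endoplasmic reticulum 6 chaperone genes were kept, with a median difference of 0.016. Of the 6, 0 passed the rule, beside 3.95% higher and 1.12% lower over all kept genes. CALR, the lectin chaperone calreticulin, differed by -0.29, and MANF by -0.014. CANX, calnexin, SDF2L1 and HYOU1 had differences of 0.05, 0.03 and 0.03, each just below 0 after repeated quantile normalization. In the list of the cytosolic chaperonin and its partner prefoldin the 6 kept genes all encode prefoldin subunits. PFDN1, at 0.28, had the largest positive difference, and VBP1 read 6.31 and 5.66, a difference of -0.65 (1.57-fold lower). Taking the 198 genes of all heat shock and chaperone lists as one, 69 were named and 61 kept, with a median of 0.026. Of the 61, 5 were higher and 2 lower, beside 3.95% and 1.12% of all kept genes. The 5 were HSPA1A, HSPA1B, HSPA6, BAG3 and IER5, and the 2 were HSPA12A and VBP1. Without the members, 56 genes were kept, of which 1 was higher and 2 lower. HSPA8, HSPA5, HSP90AA1, HSP90AB1, DNAJB1, HSPE1, HSF2 and STUB1 were listed but not analysed here.

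**Figure D4:**
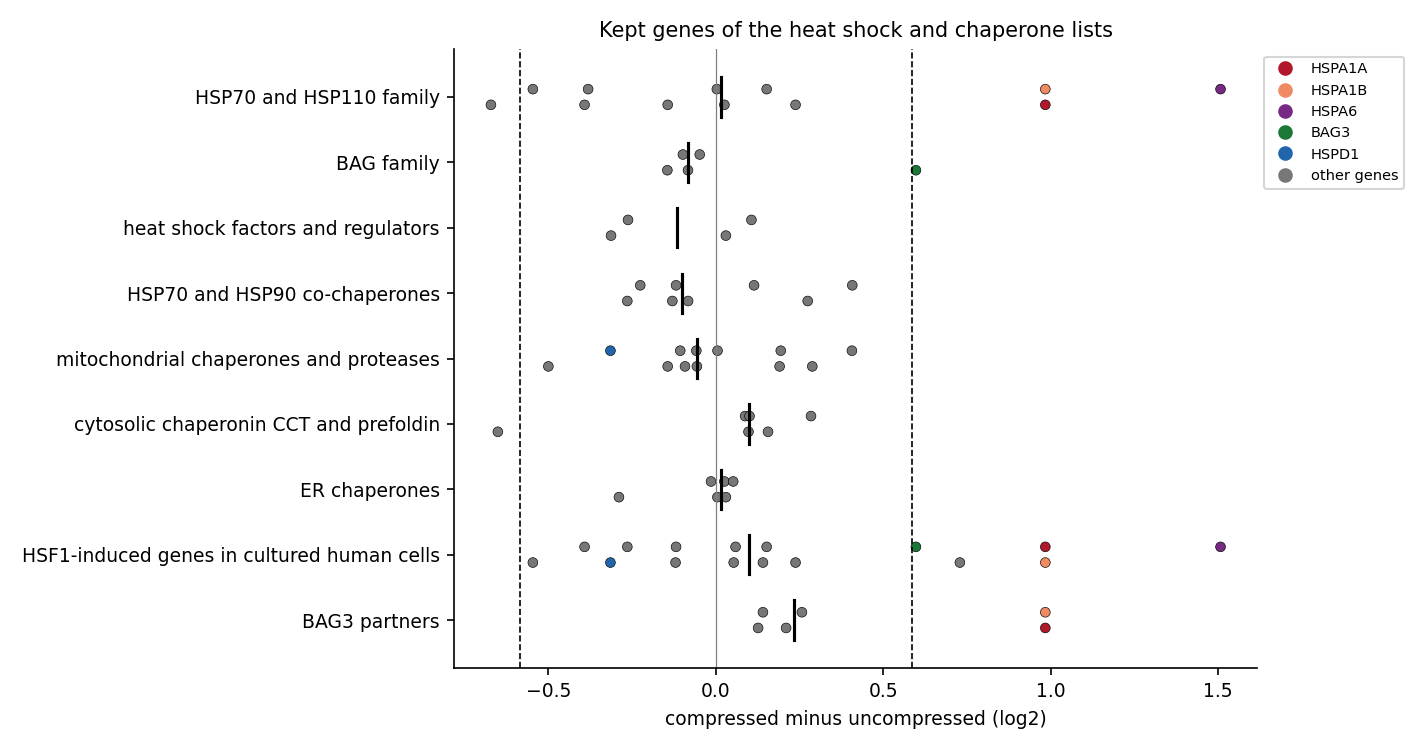
Compressed minus uncompressed level (log2) of each kept gene in 9 of the heat shock and chaperone lists, 1 point per gene, with the median of each list as a black bar, the 5 heat shock genes in colour and dashed lines at 1.5-fold. The coloured points of HSPA1A, HSPA1B and HSPA6 stand apart on the right, BAG3 lies on the dashed line, and IER5 is the 1 grey point right of it. A gene may appear in several lists.

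The heat shock element motifs were also counted over the other genes. Of the 61 kept genes of the lists, 54 had a RefSeq window, and 13 of these held a 2-unit motif. Among those 13, 4 were higher (HSPA1A, HSPA1B, HSPA6 and IER5) and 0 lower, beside 3.57% and 0.85% of all kept genes with a window. Of the 4, only IER5 is not a member. The members were chosen with earlier results known, so nothing is read from this count. Over all genes, 653 kept genes had such a window, of which 4.75% were higher, beside 3.57% of the 5884 kept genes with any window, and without the members the value was 4.31%. A 3-unit motif was found for 22 kept genes, and their median difference was -0.06. HSPA6 and 2 further genes of these were higher, FLJ42627 (4.95 and 6.28) and GAS5 (7.68 and 8.26), both non-members named after their values were seen. IFT172, named in the same way, was the 1 lower gene (5.51 and 4.91). These are 13.6% higher and 4.55% lower, beside 3.57% and 0.85% of all kept genes with a window, and nothing is read from so few genes. HSPD1, whose downstream window holds the site printed above, was in neither group.

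Apart from the members themselves, no kept gene among the nearest named genes on the chromosome passed 1.5-fold. Over all kept genes only 3.95% were higher and 1.12% lower, and the kept neighbours are few, so nothing is read from this. In the order of the RefSeq annotation, the nearest named genes around HSPA1A and HSPA1B on chromosome 6 were VARS1 (-0.37), HSPA1L (0.15), NEU1 (0.11, below the floor) and EHMT2 (-0.50), all inside the size rule. Around BAG3 on chromosome 10, RGS10, TIAL1, INPP5F and MCMBP had differences of 0.09, 0.08, 0.14 and -0.30. On chromosome 2, COQ10B, next to HSPD1, read 7.23 and 7.49, a difference of 0.25. The other nearest named genes around HSPD1, which do not include its partner HSPE1, and the 4 around HSPA6 on chromosome 1 lay below the floor.

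Likeness of pattern was measured as the Euclidean distance over the 2 log2 levels, so it joins level and difference and rests on 2 arrays. The members were left out of the ranking, so HSPA1A and HSPA1B were not set against each other. For BAG3 the nearest kept protein-coding genes were TGFB1I1 (6.35 and 6.95, distance 0.0072), RAPH1 (0.053) and ETS1 (0.054). For HSPD1 they were TMEM184C (7.65 and 7.32, distance 0.015), CENPK (0.033) and PTER (0.038). HSPA6 lay nearest to USP17L12 (0.22), EID3 (0.27) and HIVEP2 (0.29). HSPA1B lay nearest to COX8A (0.52), MT1X (0.54) and HMGA1 (0.55), and HSPA1A to EEF1G, YBX1 and PRDX1, at 0.65 to 0.70. Of the last 6 genes, MT1X, a metallothionein gene, had the difference closest in size (9.84 and 11.34, a difference of 1.49), and the other 5 differed by 0.26 or less.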

How the data were processed

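The deposited table holds log2 signals of 53617 probe sets on 2 arrays, made by the authors. The submitters' processing notes name RMA and Transcriptome Analysis Console as tools, without versions. RMA subtracts background, forces the arrays onto a common distribution and combines the probes of a probe set, so it removes a shift common to all genes and shrinks differences near background. The array library version and genome build are not stated in the sources used here. Groups came from the treatment label, with 1 array each, so no test was made.

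Used by name were the 16098 probe sets to which the platform annotation gave a single gene symbol, all matched by gene identifier to RefSeq (GRCh38.p14). Probe sets with no symbol or with several symbols were left out, so the other 37519 are unnamed here. A gene took its brightest probe set by mean, genes reaching the median gene level (4.79) were kept, and the size rule was 1.5-fold. The rule was tested on simulated data. Members and lists were chosen with earlier results of these data known. Named were all probe sets of the members, the kept genes of each list past 1.5-fold or else the 3 largest differences in each direction, and a fixed set of chaperone genes. The 3 kept protein-coding genes nearest to each member, other members left out, were also named. Promoter windows were the 250 bases before RefSeq start sites, searched for exact motif letters and, for HSPA1A and HSPA1B, aligned globally. Recomputed were the differences of genes in the heat shock and chaperone lists. So were the counts and medians of those lists with at least 3 kept genes. This was done without the level filter, with a floor at the 75th percentile, over the mean of a gene's probe sets and after loess correction (span 0.3). It was also done after median centring, after a second quantile normalization of the named probe sets, at 2-fold and 1.25-fold, and over protein-coding genes alone. For all lists taken as one, the mean also replaced the median. The motif, level-window, neighbour, likeness and marker results were not recomputed. A filter on the brighter array was added after seeing the data. Python 3.11.15, NumPy 2.4.6, pandas 2.3.3, Biopython 1.88, statsmodels 0.14.6 and matplotlib 3.10.9 were used.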

Additional observations from a re-analysis of the deposited data

How the results depend on the processing

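Over the alternatives the difference ranged from 0.76 to 1.00 for HSPA1A, 0.78 to 1.08 for HSPA1B, 1.49 to 1.52 for HSPA6, 0.53 to 0.61 for BAG3 and -0.34 to -0.31 for HSPD1, and no sign changed. The lowest values of HSPA1A and HSPA1B came from repeated quantile normalization. BAG3 was under 1.5-fold after loess correction (0.57) and repeated quantile normalization (0.53), and the causes were not tested. At 2-fold, HSPA1A (0.98), HSPA1B (0.98) and BAG3 (0.60) did not pass by construction. HSPA6 was then the 1 listed gene, members included, that was higher, and 0 were lower. At the 75th percentile HSPA6, IER5, HSPA12A and VBP1 were filtered out, which left 3 listed genes higher and 0 lower. With the mean over probe sets 1 listed gene was lower, and at the smaller of the alternative sizes 6 were. The median over the listed genes was 0.0055 with no filter, 0.052 at the 75th percentile, 0.0055 with the mean over probe sets, 0.0141 after loess and -0.00071 after repeated quantile normalization, and their mean was 0.048, so its sign is not settled. No detection calls were used, so whether dim probe sets were above background is unknown. No paired analysis was possible because each group has 1 array.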
